A study of Saccharomyces cerevisiae with 21 samples.

Results

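The genes of gluconeogenesis and the glyoxylate cycle described here are 10 of the 6571 coding sequences counted in budding yeast, and they carry the path from acetate, lactate and fatty acids to sugar phosphates. They are the gluconeogenic genes FBP1 and PCK1, the glyoxylate cycle genes ICL1, MLS1, MDH2 and CIT2, the acetate-activating gene ACS1, and the carrier genes SFC1, JEN1 and ADY2. They were chosen by their place in the pathway and on earlier results of these same libraries, which had singled out MDH2 and other glucose-repressed genes in the Luc7 triple mutant. Differences of the triple mutant are therefore given as a description with no p-value, and where its genes past the call threshold are counted, nothing is read from the count. An adjusted p elsewhere describes a gene's difference against the spread of its libraries and supports nothing about the choice of genes.

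Polyadenylated RNA of Saccharomyces cerevisiae was sequenced in 21 libraries, 3 in each of 7 groups. Wildtype cells and cells with a humanized U1C, a protein of the U1 snRNP that binds 5′ splice sites, were taken at low density (OD600 near 0.4 for both). High-density samples of the same strains came from an experiment done before, with wildtype near OD600 5 and the humanized cells near 8. The third strain was a Luc7 triple mutant, altered in another U1 snRNP protein and labelled low density with no number, whose changes the labels do not describe. The fourth carries Luc7 tagged with a degron and was taken minus IAA and plus IAA, the latter after 6 h with beta-estradiol and the auxin IAA, which deplete the tagged protein. The labels give no density or medium for the degron cultures, and they allow YPD or dropout medium for every strain. Density and experiment cannot be told apart, and at high density the strains also differ in OD600.

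The libraries held 28.5 to 46.8 M assigned reads. Levels of a gene across libraries are given as normalized CPM, which are reads per M assigned after TMM scaling over all 21 libraries. YHC1, the gene of yeast U1C, had 35.6 to 40.8 normalized CPM in wildtype and 29.4 to 32.2 in humanized libraries at low density, and only reads that match the yeast sequence are counted. LUC7 had 36.9 to 43.5 normalized CPM in the triple mutant and 79.1 to 146 in the degron strain. The degron acts on the protein, so this RNA does not check the depletion. URA3 had no reads in the triple mutant, at most 23.5 normalized CPM in the degron strain and 473 to 898 normalized CPM in the wildtype and humanized groups. LEU2 had no reads in the wildtype and humanized groups, 503 to 940 in the triple mutant and degron strain minus IAA, and 135 to 191 plus IAA. Luc7, strain background and growth medium therefore cannot be told apart between the wildtype and humanized strains on one side and the triple mutant and degron strain on the other. Wildtype replicate 2 stood apart from its group at both densities, with a chi-square per degree of freedom against replicate 3 of 117.28 at high and 71.81 at low density, where the closest pair of libraries had 6.11. Humanized replicate 3 at high density also stood apart, with 68.98 and 54.98 against replicates 1 and 2, which had 15.64 between them. Without it 3 members were called with density in humanized cells in place of 4, 3 between the strains at high density in place of 2, and 2 for the difference between the density changes in place of 1. Over all sequences, 1552 of 6163 were then called higher and 1565 lower with density, in place of 1704 and 1644 of 6150. Between the strains they were 850 and 731 of 6133, in place of 978 and 774 of 6119. For the difference between the density changes they were 552 and 519 of 6163, in place of 605 and 493 of 6150. Whether replicates came from separate cultures is not labelled, so p-values measure the spread between libraries, which may be technical.

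Yeast that grows on glucose burns it through glycolysis and keeps the genes of the reverse path repressed. When glucose is gone, the Snf1 kinase releases the repressor Mig1, and the activators Cat8, Sip4 and Adr1 turn on gluconeogenesis, the glyoxylate cycle and the carriers that bring in acetate and lactate. The glyoxylate cycle joins acetyl-CoA into malate and succinate without losing carbon as carbon dioxide, and Pck1 and Fbp1 then bypass the irreversible steps of glycolysis. Cat8 and Sip4 bind the carbon source response element (CSRE). CIT2 is also the standard reporter of the retrograde pathway, in which the Rtg1 and Rtg3 proteins bind an R box when mitochondria are impaired.

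In the R64 (sacCer3) annotation of RefSeq, each member was a single coding exon that overlapped no other annotated coding gene and shared no 50-base stretch with another coding sequence. FBP1 (YLR377C) lies on chromosome XII at 873746 to 874792, PCK1 (YKR097W) on XI at 631152 to 632801 and ICL1 (YER065C) on V at 285241 to 286914. MLS1 (YNL117W) lies on XIV at 406358 to 408022, MDH2 (YOL126C) on XV at 81787 to 82920 and CIT2 (YCR005C) on III at 120946 to 122328. ACS1 (YAL054C) lies on I at 42881 to 45022, SFC1 (YJR095W) on X at 609773 to 610741, JEN1 (YKL217W) on XI at 22234 to 24084 and ADY2 (YCR010C), also called ATO1, on III at 132273 to 133124.

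The 600 bases upstream of each start codon were searched on both strands for the letters of the CSRE and the R box. The degenerate form of the CSRE, 12 letters long, was found upstream of 33 of 6005 genes (0.55%) and of 5 of the 10 members, PCK1, ICL1, MLS1, MDH2 and ADY2. Its core letters CCNNTNNNCCG, which every match of the degenerate form contains, were found upstream of 524 genes (8.73%) and 7 members, ACS1 and SFC1 added. The R box GTCAC was found upstream of 2956 genes (49.2%) and 6 members. At least 3 R box matches were found upstream of 216 genes (3.6%), CIT2 among them. Neither form of the CSRE nor the R box was found in this window of FBP1 and JEN1. The stretches that hold the degenerate CSRE matches are shown because the members that share them behaved differently below, and that of CIT2 because its R boxes are its best known element. They read 5′ to 3′ on the coding strand of the gene, capitals mark the matches, and a match on the other strand appears as its reverse complement. They are PCK1 at chrXI:630660-630691 (plus strand), ICL1 at chrV:287292-287323 (minus), MLS1 at chrXIV:405817-405878 (plus), MDH2 at chrXV:83277-83363 (minus), ADY2 at chrIII:133615-133646 (minus) and CIT2 at chrIII:122510-122683 (minus).
PCK1: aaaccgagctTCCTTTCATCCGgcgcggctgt
ICL1: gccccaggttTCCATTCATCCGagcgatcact
MLS1: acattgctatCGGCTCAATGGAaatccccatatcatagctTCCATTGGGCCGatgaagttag
MDH2: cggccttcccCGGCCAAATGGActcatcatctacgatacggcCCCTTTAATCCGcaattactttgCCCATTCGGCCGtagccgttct
ADY2: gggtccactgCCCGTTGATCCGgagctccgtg
CIT2: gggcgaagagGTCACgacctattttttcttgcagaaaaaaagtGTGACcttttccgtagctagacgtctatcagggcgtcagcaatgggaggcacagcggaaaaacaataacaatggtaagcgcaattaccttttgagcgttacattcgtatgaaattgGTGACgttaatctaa

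PCK1, ICL1 and ADY2 had 1 degenerate CSRE match each, beginning 482, 399 and 512 bases before the start codon. MLS1 had 2, at 531 and 501 bases, and MDH2 had 3, at 433, 401 and 378 bases. The 3 R boxes of CIT2 began 345, 312 and 196 bases before its start codon. A match is a description of the letters and not of a bound site. Whether promoters of the members were among those from which these motifs were defined was not checked. Nothing is therefore read from the members' share of matches.

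**Figure D1:**
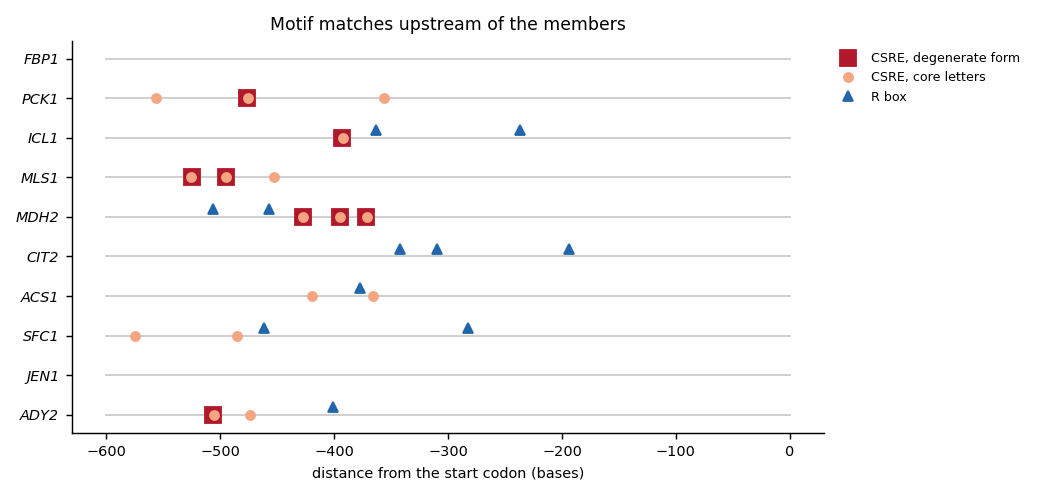
Matches of the degenerate CSRE (squares), the CSRE core letters (circles) and the R box (triangles) in the 600 bases upstream of each member, by distance from the start codon in bases. MDH2 has 3 degenerate CSRE matches, CIT2 has 3 R boxes, and FBP1 and JEN1 have none of the motifs.

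Most of the 10 genes were low in every group. RNA was measured in bulk, so fewer cells with a transcript and less of it per cell cannot be told apart. Per length, as deposited TPM, the median over the 21 libraries was 1.49 for SFC1, 2.47 for MLS1, 5.45 for PCK1, 5.77 for FBP1, 5.79 for ADY2, 6.79 for JEN1 and 7.33 for ACS1. Between 7.34% and 16.4% of all sequences had a lower median TPM than these 7 genes. ICL1 reached 24.6 TPM, MDH2 35.0 and CIT2 66.8, above 44.1%, 56.0% and 73.9% of the sequences. The lowest library of SFC1 still held 23 reads, and the other members held at least 116 reads in every library, so all 10 passed the filter on low counts in every comparison.

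The genes also differed in how far their level moved between groups. The highest group mean in normalized CPM was 13.7-fold above the lowest for CIT2 and 11.7-fold for MDH2, 3.19-fold for ADY2 and 2.47-fold for SFC1, and between 1.12-fold (ACS1) and 1.75-fold (FBP1, JEN1) for the rest. With the 7 groups ordered by their mean, 5 of the 6 pairs of neighbours did not overlap for MDH2, 4 for CIT2 and ICL1, 2 for FBP1 and JEN1, and 1 for PCK1 and ADY2. Neighbours overlapped throughout for MLS1, ACS1 and SFC1. These pairs were not counted over all sequences, and the groups were ordered by their own means, so nothing is read from the counts about the members.

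**Figure D2:**
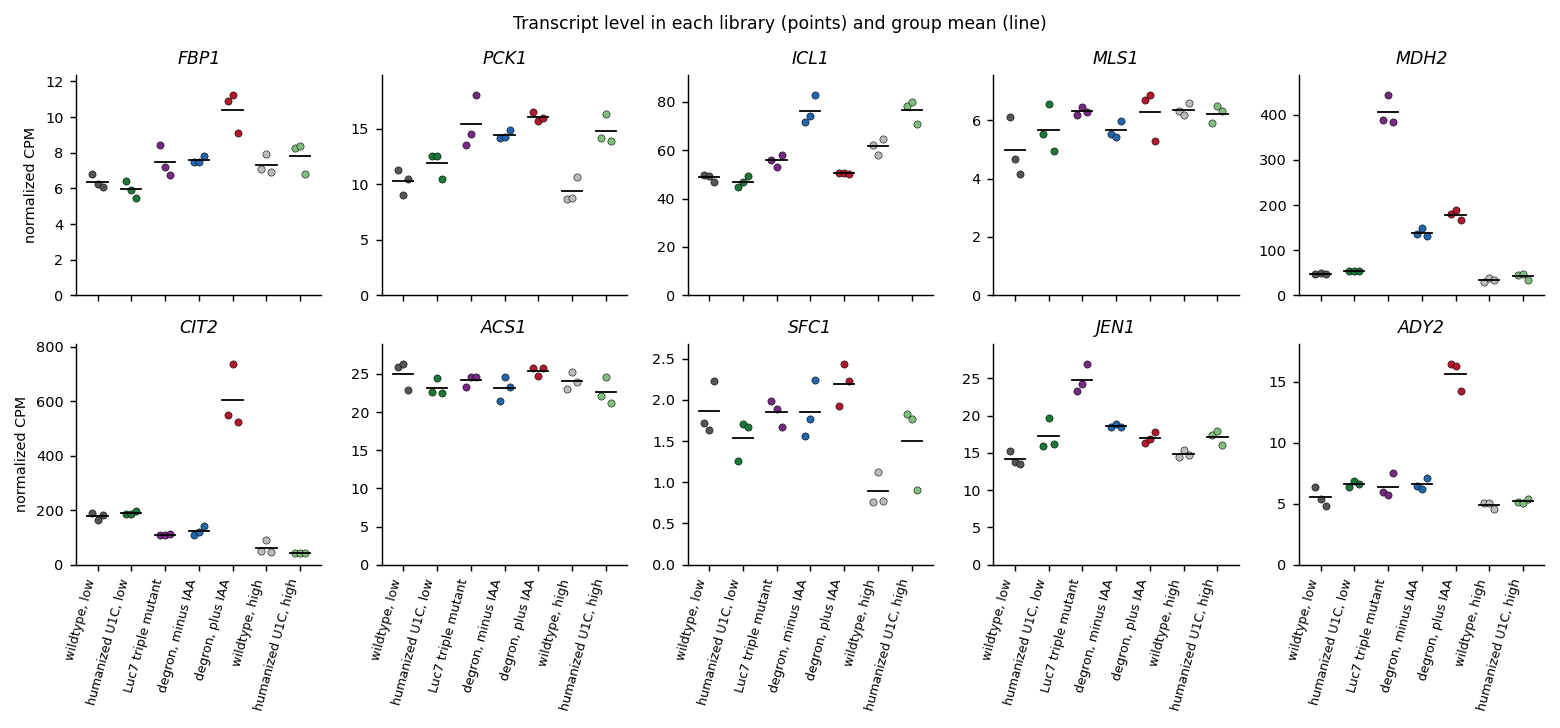
Normalized CPM of each member in each of the 21 libraries (points, 3 per group) with the group mean (line), each panel on its own axis from 0. MDH2 is highest in the Luc7 triple mutant (383 to 445), CIT2 (524 to 736) and ADY2 (14.3 to 16.5) in the degron strain plus IAA, and ACS1 lies between 21.1 and 26.3 throughout.

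At high density, wildtype cells had more ICL1 RNA and less MDH2, CIT2 and SFC1 RNA than at low density. That is 1 of the 10 members called higher and 3 called lower at adjusted p below 0.05 in the edgeR quasi-likelihood fit, where 20.9% of 6150 tested sequences were called higher and 22.7% lower. In humanized cells at high density, FBP1 and ICL1 were higher and MDH2 and CIT2 lower, 2 in each direction beside 27.7% and 26.7% of all sequences. The median log2 fold change of the members was −0.11 in wildtype and −0.02 in humanized cells, beside 0.01 and 0.02 over all tested sequences. The change with density differed between the strains for ICL1 alone, where 9.84% of sequences were called in its direction and 8.02% in the other. On deposited TPM in limma, the median of all tested sequences itself moved up by 0.20 in wildtype and 0.23 in humanized cells. On that scale 3 members were called higher and 2 lower in wildtype, with FBP1 and MLS1 gained and SFC1 lost, and 3 higher and 1 lower in humanized cells, with PCK1 gained and MDH2 lost. Of the 6150 tested sequences it called 2290 higher and 564 lower in wildtype, and 2703 and 708 in humanized cells.

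At low density, no member of the 10 differed by call between the humanized strain and wildtype in edgeR, DESeq2 or limma, and edgeR called 2.67% of 6107 sequences higher and 3.88% lower. At an unadjusted p below 0.05 in edgeR there were 2, MDH2 and JEN1, beside 1772 of the 6107 sequences. The log2 fold changes of the 10 lay between −0.28 and 0.27. At high density 2 members were higher in humanized cells, PCK1 and ICL1, and none was lower, beside 16% and 12.6% of 6119 sequences. An unadjusted p below 0.05 was also reached by those 2 alone, beside 2535 of the 6119 sequences.

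In the triple mutant 4 members lay above wildtype past the same threshold, PCK1, ICL1, MDH2 and JEN1, and 1 lay below it, CIT2, beside 28.3% and 26.5% of all sequences. The same 5 genes lay on the same sides of the humanized strain at low density, beside 17.8% and 16.1%. Both counts share the 3 triple mutant libraries and lie in the contrasts on which the genes were chosen, so they describe the members and nothing is read from them.

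In the degron strain plus IAA, FBP1, MDH2, CIT2 and ADY2 were higher and ICL1 was lower than minus IAA. These 4 and 1 of 10 stand beside 34% of 6156 sequences called higher and 34.3% called lower, so the members' share upward lay near the background. The median log2 fold change of the members was 0.19, and that of all tested sequences was 0.01. On deposited TPM the median of all sequences moved up by 0.28, and 6 members were called higher and 1 lower, with PCK1 and ACS1 gained. On that scale 3379 of 6156 sequences were called higher and 1120 lower.

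**Figure D3:**
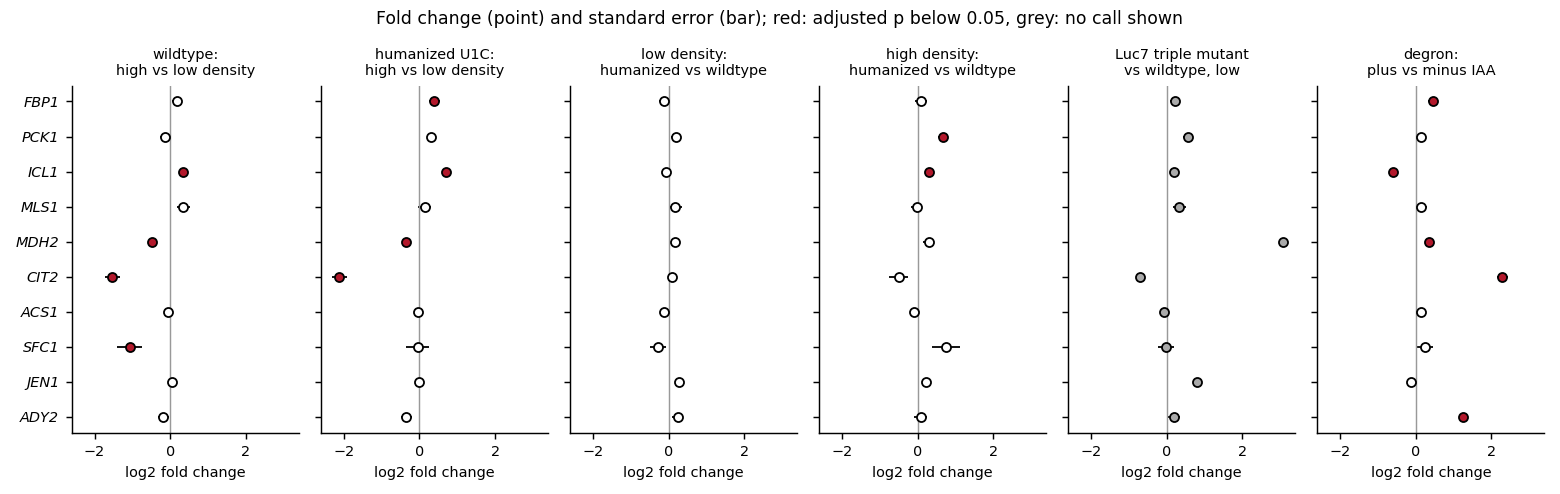
Log2 fold change of each member (points) with its standard error (bars) in 6 comparisons of 3 against 3 libraries, red where the adjusted p was below 0.05 and grey in the triple mutant panel, where no call is shown. CIT2 is lowest in both comparisons of density (−1.53 and −2.12) and highest plus IAA (2.29), MDH2 is highest in the triple mutant (3.08), and no point is red for humanized against wildtype cells at low density.

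FBP1 encodes fructose-1,6-bisphosphatase, which undoes the phosphofructokinase step. Its level was 6.79, 6.22 and 6.10 normalized CPM in wildtype at low density and 6.44, 5.90 and 5.48 in humanized cells at low density. At high density it was 7.08, 7.92 and 6.90 in wildtype and 8.27, 8.37 and 6.80 in humanized cells. Every high-density library was above the low-density libraries of its strain. FBP1 rose with density in humanized cells by 0.39 ± 0.14 on the log2 scale (adjusted p = 0.0273), and the value in wildtype was 0.18 ± 0.14 (adjusted p = 0.296). The error here and below is the SE of the fitted log2 fold change, with the spread taken over all libraries of that fit. The difference between those changes was not called (0.21 ± 0.19, adjusted p = 0.503). The call in humanized cells was lost without high-density replicate 1 or 2 or low-density replicate 2 or 3 of that strain (adjusted p = 0.0829, 0.0884, 0.0720 and 0.101).

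The degron strain held the highest FBP1 level. It was 7.46, 7.49 and 7.84 normalized CPM minus IAA and 10.9, 11.3 and 9.08 plus IAA, with no overlap, and rose 1.37-fold (0.45 ± 0.12, adjusted p = 0.00776). The triple mutant had 8.44, 7.22 and 6.77, which overlapped wildtype at low density. Its log2 fold change against wildtype was 0.22 ± 0.13.

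PCK1 encodes phosphoenolpyruvate carboxykinase, the entry step of gluconeogenesis. Wildtype had 11.3, 9.06 and 10.4 normalized CPM at low density and 8.67, 8.80 and 10.6 at high density, and the groups overlapped. Humanized cells had 12.6, 12.6 and 10.5 at low density and 14.1, 16.3 and 13.9 at high density, with no overlap. PCK1 was thus higher in humanized than in wildtype cells at high density, 1.58-fold (0.66 ± 0.14, adjusted p = 0.0121), and the call was lost without humanized replicate 2 (0.0640) or wildtype replicate 1 (0.0626). The change with density within humanized cells stayed just outside the threshold (0.32 ± 0.13, adjusted p = 0.0523), and its difference from wildtype was 0.47 ± 0.18 (adjusted p = 0.102). The triple mutant had 13.6, 14.5 and 18.1 normalized CPM, above every wildtype library (0.57 ± 0.13). The degron strain had 14.1, 14.2 and 14.9 minus IAA and 16.5, 15.7 and 16.0 plus IAA, without overlap, and the difference was not called (0.15 ± 0.08, adjusted p = 0.139).

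ICL1 encodes isocitrate lyase, which splits isocitrate into succinate and glyoxylate and commits carbon to the glyoxylate cycle. At low density it had 49.7, 49.4 and 47.0 normalized CPM in wildtype and 44.6, 47.0 and 49.4 in humanized cells, and the strains overlapped. At high density it had 62.1, 58.1 and 64.8 in wildtype and 78.4, 80.1 and 70.9 in humanized cells. There the strains did not overlap, and each lay above its own low-density libraries. ICL1 rose 1.25-fold with density in wildtype (0.33 ± 0.06, adjusted p = 0.00116) and 1.63-fold in humanized cells (0.70 ± 0.06, adjusted p = 1.87e-06). The difference between these changes was 0.38 ± 0.09 (adjusted p = 0.0106), and it was not called on deposited TPM (0.33, adjusted p = 0.125). The OD600 behind the high-density samples was near 5 in wildtype and near 8 in humanized cells, so strain and density cannot be told apart in it. The direct comparison at high density gave 0.32 ± 0.07 (adjusted p = 0.0135), and the call was lost without humanized replicate 1 or 2 (0.0843 and 0.0925) or wildtype replicate 1 (0.0658).

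In the degron strain ICL1 was the only called member to fall. It had 71.5, 74.0 and 82.9 normalized CPM minus IAA and 50.4, 50.5 and 50.2 plus IAA, and fell 1.51-fold (−0.60 ± 0.06, adjusted p = 1.85e-05). Minus IAA the degron strain was thus level with humanized cells at high density, whose libraries it overlapped, and plus IAA it lay just above the wildtype libraries at low density. The triple mutant had 56.0, 53.1 and 58.0, a difference from wildtype of 0.19 ± 0.06.

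MLS1 encodes malate synthase, which joins glyoxylate with acetyl-CoA. It lay between 4.16 and 6.87 normalized CPM in all 21 libraries and no comparison called it in the reported edgeR fits. On deposited TPM it was called higher with density in wildtype. The change with density in wildtype was 0.34 ± 0.17 in edgeR (adjusted p = 0.119), although the 3 high-density libraries (6.30, 6.17 and 6.59) were above the 3 at low density (6.11, 4.67 and 4.16). MLS1 and ICL1, which catalyse consecutive steps, thus had different calls with density and plus IAA in the reported edgeR fits. The difference between the genes themselves was not tested.

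MDH2 encodes the cytosolic malate dehydrogenase, which turns malate from the glyoxylate cycle into oxaloacetate for Pck1. Its level was highest in the triple mutant, followed by the degron strain. It had 47.2, 48.7 and 47.6 normalized CPM in wildtype and 53.5, 53.8 and 53.9 in humanized cells at low density. The triple mutant had 388, 445 and 383, 8.44-fold above wildtype and 7.55-fold above humanized cells (3.08 ± 0.06 and 2.92 ± 0.06). Every triple mutant library lay above each of the other 18 libraries. The degron strain was between these levels before any depletion, with 136, 148 and 132 minus IAA, and rose 1.28-fold to 180, 188 and 166 plus IAA (0.36 ± 0.07, adjusted p = 0.00074). The 9 libraries with the most MDH2 RNA, those of the triple mutant and the degron strain, are also the only ones with LEU2 reads, and the part of strain background in the MDH2 level was not tested.

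At high density MDH2 was lower than at low density in both strains. It had 30.2, 39.1 and 34.6 normalized CPM in wildtype (−0.48 ± 0.11, adjusted p = 0.0038) and 44.9, 47.0 and 35.0 in humanized cells (−0.34 ± 0.11, adjusted p = 0.0175). The call in humanized cells was lost without high-density replicate 3 (−0.23, adjusted p = 0.0622) and on deposited TPM (−0.11, adjusted p = 0.293). Without that library MDH2 was also called between humanized and wildtype cells at high density (0.41, adjusted p = 0.0470), which it was not with all libraries. MDH2 holds 3 degenerate CSRE matches. The other members with such a match, PCK1, ICL1, MLS1 and ADY2, had triple mutant differences from wildtype of 0.57, 0.19, 0.34 and 0.19 beside its 3.08. The members without one, JEN1, FBP1, SFC1, ACS1 and CIT2, had 0.80, 0.22, −0.02, −0.06 and −0.70. A relation between the matches and these differences was not tested.

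CIT2 encodes the peroxisomal citrate synthase, which feeds acetyl-CoA into the glyoxylate cycle. It had the widest range of the 10 genes. At low density it had 188, 165 and 181 normalized CPM in wildtype and 187, 187 and 199 in humanized cells, which overlapped. At high density it had 49.6, 90.0 and 46.8 in wildtype and 42.9, 44.5 and 44.4 in humanized cells, all below every low-density library. CIT2 fell 2.89-fold in wildtype (−1.53 ± 0.20, adjusted p = 6.57e-05) and 4.34-fold in humanized cells (−2.12 ± 0.20, adjusted p = 3.44e-06), and the difference between the changes was not called (−0.59 ± 0.27, adjusted p = 0.169). Wildtype replicate 2 at high density stood out, and without it the change in wildtype was −1.91 (adjusted p = 1.57e-09).

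The degron strain gave CIT2 its highest level. It had 108, 120 and 141 normalized CPM minus IAA and 549, 736 and 524 plus IAA, a rise of 4.88-fold (2.29 ± 0.14, adjusted p = 3.02e-07). The triple mutant moved the other way, with 109, 107 and 114 normalized CPM, below every wildtype and humanized library at low density (−0.70 ± 0.06 and −0.79 ± 0.06) and overlapping the degron strain minus IAA. The triple mutant was thus the group with the most MDH2 RNA, and the degron strain plus IAA the group with the most CIT2 RNA.

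ACS1 encodes the acetyl-CoA synthetase of cells grown without glucose. It lay between 21.1 and 26.3 normalized CPM in all 21 libraries and was the steadiest member, with log2 fold changes between −0.12 and 0.13 and no call in any comparison of the reported edgeR fits. On deposited TPM it was called higher plus IAA. ADY2 encodes a plasma membrane carrier of acetate, also linked to ammonium export. It had 6.42, 6.22 and 7.15 normalized CPM in the degron strain minus IAA and 16.5, 16.3 and 14.3 plus IAA. ADY2 rose 2.37-fold (1.25 ± 0.11, adjusted p = 5.03e-06), and these 3 libraries lay above the other 18, which ran from 4.57 to 7.50. With density its change was −0.19 ± 0.14 in wildtype (adjusted p = 0.306) and −0.34 ± 0.14 in humanized cells (adjusted p = 0.0572).

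JEN1 encodes the lactate and pyruvate permease of the plasma membrane. It had 15.3, 13.8 and 13.5 normalized CPM in wildtype and 15.8, 19.6 and 16.1 in humanized cells at low density, without overlap (0.27 ± 0.10, unadjusted p = 0.0213, adjusted p = 0.110). The triple mutant had 23.2, 24.2 and 26.9, above the other 18 libraries, and differed from wildtype by 0.80 ± 0.10 and from humanized cells by 0.53 ± 0.10. At high density the level was 14.4, 15.4 and 14.6 in wildtype and 17.4, 18.0 and 16.0 in humanized cells, and both strains overlapped their low-density libraries. The degron strain had 18.5, 18.8 and 18.5 minus IAA and 16.3, 16.8 and 17.8 plus IAA, a difference that was not called (−0.14 ± 0.08, adjusted p = 0.157).

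SFC1 encodes the mitochondrial carrier that exchanges succinate from the glyoxylate cycle for fumarate. It was the lowest member, with 23 to 96 reads per library. In wildtype it had 1.72, 1.63 and 2.23 normalized CPM at low density and 0.763, 1.13 and 0.778 at high density, and fell 2.11-fold (−1.08 ± 0.32, adjusted p = 0.0160). The call was lost without high-density replicate 1 (0.0703) or low-density replicate 3 (0.0569) of wildtype and on deposited TPM (0.0633). Humanized cells had 1.25, 1.71 and 1.67 at low and 1.83, 1.77 and 0.911 at high density, which overlapped (−0.05 ± 0.31, adjusted p = 0.913), and the difference between the strains was not called (1.03 ± 0.44, adjusted p = 0.137). Without high-density replicate 3 of the humanized cells it was called (1.28, adjusted p = 0.0347).

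The list of paralogs and isozymes of the members holds 9 genes for related enzymes and carriers, which need not share the reaction or cargo of the member. The mitochondrial malate dehydrogenase gene MDH1 had 137 to 170 normalized CPM in the triple mutant and 134 to 144 in wildtype at low density, and the peroxisomal MDH3 had 148 to 157 and 167 to 190. Their log2 fold changes there were 0.17 ± 0.07 and −0.23 ± 0.05, beside 3.08 for MDH2. In humanized cells at high density MDH1 rose (1.14 ± 0.10, adjusted p = 1.35e-06), where MDH2 fell. CIT1, the mitochondrial citrate synthase gene, changed by −0.73 ± 0.12 with density in wildtype (adjusted p = 0.000533) and was not called in humanized cells. It did not share the rise of CIT2 plus IAA, with 148 to 162 normalized CPM minus IAA and 147 to 190 plus IAA.

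ATO2, the closest relative of ADY2, rose beside it plus IAA (1.24 ± 0.12, adjusted p = 9.85e-06), from 7.72 to 10.4 normalized CPM up to 19.9 to 23.1. ATO3, another gene of this family that is known for ammonium export, fell there (−1.14 ± 0.11, adjusted p = 5.75e-06). ATO3 also fell with density in wildtype (−1.29 ± 0.08, adjusted p = 1.35e-07) and humanized cells (−1.93 ± 0.08, adjusted p = 4.73e-09). ACS2, the acetyl-CoA synthetase gene used on glucose, fell plus IAA (−1.16 ± 0.06, adjusted p = 1.31e-07), where ACS1 was not called in the same edgeR fit. Over the 9 genes 2 were called higher and 2 lower with density in wildtype, beside 20.9% and 22.7% of all sequences. There were 3 and 4 in humanized cells, beside 27.7% and 26.7%, and 2 and 3 plus IAA, beside 34% and 34.3%. None was called between the strains at low density.

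**Figure D4:**
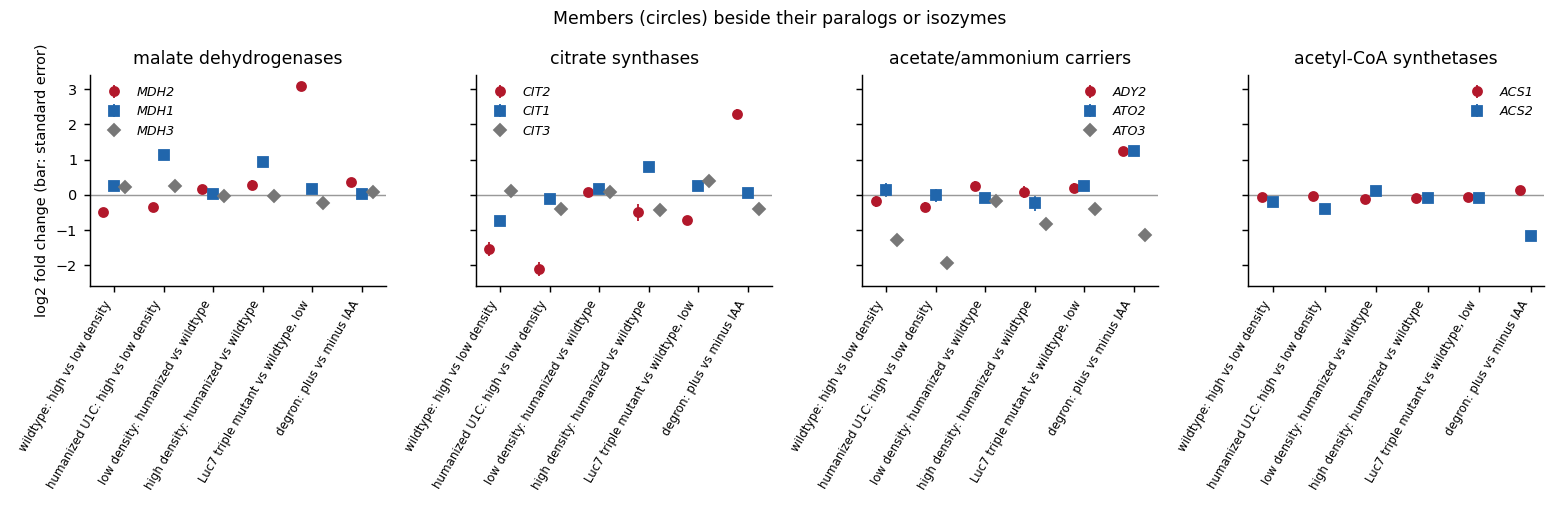
Log2 fold change (points) with its standard error (bars) of 4 members, drawn as circles, beside their paralogs or isozymes in 6 comparisons. MDH2 stands apart from MDH1 and MDH3 in the triple mutant (3.08), CIT2 from CIT1 and CIT3 plus IAA (2.29), and ADY2 and ATO2 lie together plus IAA (1.25 and 1.24).

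Of 7 genes that mark the glucose supply, 3 were higher and 4 lower with density in wildtype, beside 20.9% and 22.7% of all sequences. In humanized cells 3 were higher and 2 lower, beside 27.7% and 26.7%, and HXT3 and SUC2 were not called. HXT7, a high-affinity glucose transporter gene, rose by 3.72 ± 0.27 in wildtype (adjusted p = 5.81e-07) and 3.96 ± 0.27 in humanized cells (adjusted p = 2.29e-07). Its reads can be split with the near-identical HXT6, so its level is uncertain. HXT4, which is not part of that pair, rose by 2.73 ± 0.19 (adjusted p = 4.6e-07) and 3.09 ± 0.19 (adjusted p = 1.18e-07). HXT2, another glucose transporter gene, fell by 1.33 ± 0.26 (adjusted p = 0.00152) and 1.11 ± 0.26 (adjusted p = 0.00327), and HXT1, of low affinity, fell in both strains as well (adjusted p = 1.16e-06 and 3.03e-05). HXT3 and SUC2, the invertase gene, fell in wildtype by 0.24 ± 0.08 and 0.20 ± 0.07 (adjusted p = 0.0373 and 0.0322). Among 7 genes of irreversible glycolytic steps, 2 were higher and 4 lower with density in each strain. HXK1, the hexokinase gene induced away from glucose, rose by 2.59 ± 0.23 and 3.22 ± 0.23 (adjusted p = 3.27e-06 and 4.11e-07), and HXK2, the main hexokinase gene on glucose, fell by 1.09 ± 0.07 and 0.96 ± 0.07 (adjusted p = 1.4e-07 and 2.56e-07).

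Among 10 regulators of carbon source genes, 2 were higher and 2 lower with density in wildtype and 5 and 2 in humanized cells, beside the same shares of all sequences. CAT8, the activator of the CSRE genes, rose with density in humanized cells (0.66 ± 0.10, adjusted p = 0.000155), and SIP4 rose in wildtype (0.73 ± 0.19, adjusted p = 0.00919). MIG2, a repressor gene, fell with density in wildtype (−0.59 ± 0.08, adjusted p = 7.16e-05) and rose in humanized cells (0.75 ± 0.08, adjusted p = 6.36e-06), and the difference was called (1.33 ± 0.11, adjusted p = 2e-05). Of 12 genes for the use of acetate, ethanol, glycerol and lactate, 3 were higher and 4 lower with density in wildtype and 9 and 2 in humanized cells. ALD6, the cytosolic acetaldehyde dehydrogenase gene, gave the greatest difference between the strains in that list (1.72 ± 0.37, adjusted p = 0.00682).

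In humanized against wildtype cells at low density HAP4, an activator gene of respiration, was the only called regulator (0.59 ± 0.13, adjusted p = 0.0257). ADH2, the ethanol-oxidizing alcohol dehydrogenase gene, was lower in humanized cells (−0.63 ± 0.13, adjusted p = 0.0224). Of the 7 glucose indicators 2 were higher and none lower, beside 2.67% and 3.88% of all sequences. They were HXT7 (1.01 ± 0.12, adjusted p = 0.00101), whose reads can be split with HXT6, and HXT4 (0.66 ± 0.15, adjusted p = 0.0302). Of the 7 genes of irreversible glycolytic steps 3 were higher and none lower, HXK1 by 0.68 ± 0.16 (adjusted p = 0.0321), GLK1 and PYK2. Of the 8 GID ubiquitin ligase genes 2 were higher and 1 lower. At high density 7 of the 12 carbon-use genes were higher and 1 lower in humanized cells, beside 16% and 12.6% of all sequences. Their median was 0.47 beside 0.00 over all sequences.

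In the triple mutant 9 of the 10 regulators lay above wildtype past the threshold and none below, beside 28.3% and 26.5% of all sequences, with a median of 0.40 beside 0.00. All 7 genes of irreversible glycolytic steps also lay above wildtype past it, with a median of 0.44, and nothing is read from these counts. ADR1, an activator of ACS1 and fatty acid genes, differed by 1.95 ± 0.09 and HAP4 by 1.15 ± 0.13. HXT7 and HXT4 differed by 4.03 ± 0.13 and 2.83 ± 0.16, and ALD4 and PYC2, for mitochondrial acetaldehyde dehydrogenase and pyruvate carboxylase, by 1.76 ± 0.10 and 1.36 ± 0.05. The mitochondrial dicarboxylate and oxaloacetate carrier genes DIC1 and OAC1 lay lower, by −1.69 ± 0.09 and −1.61 ± 0.10. Of 7 genes of peroxisomal fatty acid oxidation, which supplies acetyl-CoA to the glyoxylate cycle, 4 lay higher and none lower, beside the same shares.

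Plus IAA all 7 glucose indicators were called lower, HXT4 and HXT7 included. HXT4 fell by 3.70 ± 0.18 (adjusted p = 1.06e-07) and HXT1, the low-affinity glucose transporter gene, by 2.85 ± 0.09 (adjusted p = 2.19e-08). HAP4 fell (−2.31 ± 0.11, adjusted p = 1.08e-07) and CAT8 rose (0.80 ± 0.07, adjusted p = 4.81e-06), among 3 regulators called higher and 5 lower. The GID ubiquitin ligase marks Fbp1, Pck1, Icl1 and Mdh2 proteins for degradation when glucose returns, and 7 of its 8 genes were higher plus IAA and none lower, beside 34% and 34.3% of all sequences. FYV10 rose by 1.25 ± 0.09 (adjusted p = 1.37e-06) and VID30 by 0.93 ± 0.09 (adjusted p = 6.32e-06). VID24, the substrate receptor of this ligase, had the greatest difference between strains within that list in its change with density (1.26 ± 0.12, adjusted p = 4.52e-05).

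The 10 genes did not move as a block across the 21 libraries. Over the 45 pairs of members, Pearson's r of log2(normalized CPM + 1) ran from −0.65 (ICL1 and CIT2) to 0.85 (CIT2 and ADY2), with a median of 0.3, and 2 pairs exceeded 0.8, the other being MDH2 and JEN1 (0.81). These are descriptions over libraries that share strains and groups. Among 5200 genes of at least 10 mean CPM that are not members, the pattern of CIT2 was most like those of DLD3 (r = 0.99) and RPN12 (0.984). That of ADY2 was most like DNL4 (0.971) and HSF1 (0.969), ICL1 like IMO32 (0.937) and GYP8 (0.923), and MDH2 like the strain marker LEU2 (0.931) and ADR1 (0.909). FBP1 was most like RTN2 (0.898) and DNM1 (0.892), PCK1 like YPF1 (0.893) and PIG1 (0.886), and JEN1 like UBP9 (0.893) and EMI2 (0.873). SFC1 was most like HST2 (0.858) and GID7 (0.848) and ACS1 like YKL153W (0.84) and GET2 (0.755). The pattern of MLS1 had no close match, with YMR1 (0.686) and SRF1 (0.657) nearest.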

How the data were processed

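Per the labels' protocols, RNA was extracted with hot phenol, treated with DNase and made into poly-A selected libraries. Per the submitters' processing notes, the tools were cutadapt and Salmon 1.9 with the sacCer3 build, and the notes used here name neither a strand setting nor index options. The authors deposited estimated counts and TPM per coding sequence for each library, with no pooling of replicates. Estimated counts were rounded to whole numbers. Of 6571 sequences 5906 matched the RefSeq R64 annotation by name.

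Tests used edgeR 4.0.16 in R 4.3.3 on all sequences, with TMM scaling, filterByExpr, quasi-likelihood fits with group as the only term, and a call at p below 0.05 after Benjamini-Hochberg adjustment. The low-density wildtype, humanized and triple mutant libraries shared a fit, and those of high density and of the degron strain were fitted apart. Density and its interaction with strain used the 4 wildtype and humanized groups. The SE printed belongs to the fitted log2 fold change. Alternatives were DESeq2 size factors, DESeq2 1.42.0, no filter or a mean of 10 CPM, limma 3.58.1 on log2(TPM + 1) and log2(TPM + 0.1), all 7 groups, only the groups compared, a replicate block and each library left out.

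The members, the 8 further gene lists and the tests were chosen with earlier results of these data known. Beyond the members, the 3 called genes of each list with the greatest change in a comparison could be named, and for each member the 2 genes most like it. MDH1, MDH3 and CIT1, where they fall outside this rule, were named after their values were seen. Libraries that share a replicate number deviated from their group means with correlations of −0.42 to 0.53, not all above 0.1 in any comparison, and were not treated as paired. Depth limits SFC1 most. The edgeR test was checked on counts simulated for the low-density fit, with the same spread for every gene and changes only in genes above a minimum mean count. The other fits and outlying libraries such as those named above were not covered by it.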

Additional observations from a re-analysis of the deposited data

Results flagged for a closer look

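ICL1 changed more with density in humanized than in wildtype cells, a difference of 0.38 ± 0.09 on the log2 scale with an adjusted p of 0.0106 in edgeR, and it stands here because the change differed between the strains. ICL1 was above all low-density libraries of its strain in 3 of 3 high-density libraries of each. Over the alternatives in edgeR and DESeq2 the call held, and in limma on deposited TPM it was lost (adjusted p = 0.125 and 0.132). The high-density cultures were at an OD600 near 5 in wildtype and near 8 in humanized cells, so strain and density cannot be told apart in this difference.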

How the results depend on the processing

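Across the alternatives no called fold change of a member reversed. Of 80 pairs of member and comparison 26 were called, 17 of these in every alternative that was run, and 41 were called in none. Among those 41 pairs, 17 changed sign between settings. The shares of all sequences called are given above for each comparison and were not pooled, so nothing is read from the 26 about the members. Among 695 values of the 39 pairs called in some setting, 632 kept their side of the threshold under an alternative, 32 lost a call and 31 gained one. These tallies include the triple mutant contrasts, with 4 members above and 1 below in each. Those contrasts are given only as a description, and nothing is read from their part in the tallies. The number of members called for the interaction of density and strain was 1, and 0 in limma with either pseudocount, with 1 to 2 when a library was left out. Between triple mutant and humanized cells it was 5, and 3 in limma with either pseudocount. Between the strains at high density it was 2, then 4 in limma on log2(TPM + 1) and 5 with all 7 groups, and 0 to 3 when a library was left out, with 0 without humanized replicate 2 or wildtype replicate 1 and 1 without humanized replicate 1. Over all sequences the high-density calls were 978 higher and 774 lower of 6119 in the reported fit. They were 1780 and 283 in that limma fit, and 1395 and 1308 of 6206 with all 7 groups. Without humanized replicate 1 or 2 they were 468 and 368 or 429 and 370, both of 6151. Without wildtype replicate 1 they were 466 and 338 of 6145. For the interaction the calls over all 6150 sequences were 605 higher and 493 lower in the reported fit, and 551 and 269 in limma on log2(TPM + 1). For triple mutant against humanized cells they were 1087 and 985 of 6107, and 596 and 906 in that limma fit. The cause of these shifts was not tested. With the replicate block the counts were 4 and 4 for density in wildtype and humanized cells, 1 for the interaction, 0 and 2 between the strains at low and high density, 5 and 4 for the triple mutant against wildtype and humanized cells, and 5 plus IAA. Over all sequences the block gave 1315 higher and 1421 lower with density in wildtype, and 1679 and 1649 in humanized cells. For the interaction it gave 627 and 490, all of 6150. Between the strains it gave 88 and 150 of 6107 at low density, and 724 and 507 of 6119 at high density. For the triple mutant it gave 1612 and 1486 against wildtype and 936 and 863 against humanized cells, both of 6107. Plus IAA it gave 2004 and 1982 of 6156. With the block PCK1 no longer passed the threshold between triple mutant and humanized cells, a contrast given only as a description, and no other call ended. Leaving out both wildtype libraries numbered 2, an alternative added after seeing the data, kept 4 calls for density in wildtype and gave 5 in humanized cells. Of 6177 sequences it called 1426 higher and 1300 lower in wildtype, and 1927 and 1885 in humanized cells. On deposited TPM the median of all sequences moved by 0.14 between the strains at low density, 0.17 at high density and 0.13 in the triple mutant against wildtype. The ratio of the highest to the lowest group mean moved by more than the spread between libraries for 9 of the 10 members on deposited TPM, MDH2 being the exception, and for ADY2 it went from 3.19 to 4.96. A fit of only the groups compared was not run apart where the reported fit held only those groups. The low-count filter at a mean of 10 CPM kept 6 members, and 8 in the degron strain, and depth limits SFC1 most, at 23 to 96 reads.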

Other observations

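Genes of neighbouring pathways that the comparisons above leave out also moved. Of 7 genes of peroxisomal fatty acid oxidation, 1 was higher and none lower with density in wildtype, beside 20.9% and 22.7% of all sequences. There FAA2, for medium-chain fatty acid activation, rose by 0.67 ± 0.10 (edgeR adjusted p = 0.00017). In humanized cells 2 were higher and 3 lower, beside 27.7% and 26.7% of all sequences. PXA1, for a peroxisomal fatty acid transporter, was at 0.50 ± 0.08 (adjusted p = 0.000154) and its partner PXA2 at −0.37 ± 0.09 (adjusted p = 0.00324). Plus IAA 2 were higher and 3 lower, beside 34% and 34.3% of all sequences, and POT1, the thiolase gene, fell by 0.68 ± 0.13 (adjusted p = 0.000881). Of 7 acetyl-carnitine and carrier genes, 2 were higher and 2 lower with density in wildtype, 1 and 3 in humanized cells, and 3 and 3 plus IAA, beside the same shares. DIC1, the mitochondrial dicarboxylate carrier gene, fell in all 3 of these comparisons (adjusted p = 0.00197, 5.6e-05 and 8.25e-06), with density by 0.61 ± 0.13 and 0.95 ± 0.13. Of the 8 GID ligase genes, 6 lay above wildtype and none below in the triple mutant, beside 28.3% and 26.5% of all sequences, with a median of 0.57 beside 0.00, and nothing is read from this count.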
